A study of Arabidopsis thaliana with 18 samples.

Results

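The cytokinin oxidase and isopentenyltransferase genes of Arabidopsis were followed in RNA-seq libraries of whole seedlings of Wt and the auxin-related mutants *aff1-1* and *aff1-3*. The set holds 10 of the 28278 genes in the count table, defined by locus number: CKX1 (AT2G41510), CKX2 (AT2G19500), CKX3 (AT5G56970), CKX4 (AT4G29740), CKX5 (AT1G75450), CKX6 (AT3G63440), CKX7 (AT5G21482), IPT3 (AT3G63110), IPT5 (AT5G19040) and IPT7 (AT3G23630). The names of CKX5, CKX6 and CKX7 have been exchanged among loci in older annotation, so the locus numbers define them here. All 7 CKX genes of the species are included, whereas the 3 IPT genes are part of a larger family.

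Cytokinins are adenine derivatives that promote cell division in shoots and restrain the root meristem, and they act against auxin in many root tissues. Adenylate isopentenyltransferases (IPTs) attach the isoprenoid side chain and so begin synthesis, and cytokinin oxidases/dehydrogenases (CKXs) cut this side chain off and thereby inactivate the hormone irreversibly. The level of active cytokinin in a tissue therefore depends on the balance of both families, on activation of the nucleotides by LOG enzymes, on glucosylation and on transport.

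The 18 libraries fell into 6 groups of 3. Seedlings were 4 d old and had the Col-0 background, and each genotype received either a mock treatment or 10 µM indole-3-acetic acid (IAA, the main natural auxin) for 2 h. A design text gives the dose in mM, and the unit of the titles is used here. Wt is Col-0. *aff1-1* carries a backcrossed EMS-induced point mutation that changes an amino acid of the F-box protein AFF1, and *aff1-3* is a T-DNA insertion line (Salk_083453), which the labels call aff1-2 and the study's text *aff1-3*. Each mutant is a single line. The study's methods describe 3 repeats of the treatment per line, and neither they nor the labels say whether the seedlings were grown separately, so p-values measure the spread between these libraries, part of which may be technical. The comparison asks whether genes of cytokinin metabolism respond to auxin, and whether they differ in lines with a changed AFF1 gene. AFF1 encodes an F-box protein studied for its effect on the auxin response factors ARF7 and ARF19.

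Total counts were 12610301 to 36102396 per library, with the shallowest library in *aff1-3* with IAA. AFF1 (AT3G49150) had 2, 6 and 9 counts in Wt with mock and 3 or fewer in each *aff1-1* library, but 104, 88 and 144 counts in *aff1-3* with mock. The *aff1-3* libraries thus stood apart from all others by more, not fewer, AFF1 reads (log2 fold change 4.43 against Wt with mock, SE 0.41, adjusted p = 3.41e-07, edgeR). AFF1 passed the filter on low counts only through the *aff1-3* libraries, in which it was highest, so this p-value is not independent of that selection. Counts over the whole gene do not show whether a complete transcript was made. All 3 shoot markers and all 5 root markers had counts in every group. Summed root markers were at 3216 to 4320 CPM (counts per 1e6 counts of the library, scaled by TMM) in Wt with mock, 2509 to 2813 CPM in *aff1-1* and 1964 to 2441 CPM in *aff1-3*. These sums are nearly all PYK10 (3489 ± 569, 2478 ± 148 and 2085 ± 260 CPM), the 1 root marker of 5 that was lower past the threshold in each mutant with mock. The median log2 fold change of the 5 was -0.09 in *aff1-1* and -0.17 in *aff1-3*. Summed seed storage transcripts were at most 22.5 CPM except in *aff1-1* with IAA, where they reached 66.7 CPM.

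The 250 bases upstream of the annotated start are given for the CKX genes whose transcripts moved and for IPT5, since the members changed with auxin and auxin response factors bind TGTCTC elements (RefSeq sequence, build TAIR10.1, 5′ to 3′ on the gene's strand). Capitals mark TGTCTC or its reverse complement GAGACA.
CKX1 (chr2:17314162-17314411, plus strand, rose with IAA): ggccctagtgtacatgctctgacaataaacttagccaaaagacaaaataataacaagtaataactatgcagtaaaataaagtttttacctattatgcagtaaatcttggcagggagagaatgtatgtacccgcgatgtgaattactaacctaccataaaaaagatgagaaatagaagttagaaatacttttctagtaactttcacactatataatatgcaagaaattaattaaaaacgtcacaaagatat
CKX3 (chr5:23048293-23048542, minus strand, rose with IAA): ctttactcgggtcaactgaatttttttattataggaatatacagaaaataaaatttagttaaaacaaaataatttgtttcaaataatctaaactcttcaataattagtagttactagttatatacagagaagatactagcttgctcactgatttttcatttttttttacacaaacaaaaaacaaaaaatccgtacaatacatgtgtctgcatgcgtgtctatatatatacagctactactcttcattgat
CKX6 (chr3:23423907-23424156, plus strand, rose with IAA): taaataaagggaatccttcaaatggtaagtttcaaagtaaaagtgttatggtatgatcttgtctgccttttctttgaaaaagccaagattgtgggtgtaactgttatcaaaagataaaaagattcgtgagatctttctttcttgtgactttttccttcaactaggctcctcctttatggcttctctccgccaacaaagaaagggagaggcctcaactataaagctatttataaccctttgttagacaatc
CKX5 (chr1:28318376-28318625, minus strand, rose with IAA): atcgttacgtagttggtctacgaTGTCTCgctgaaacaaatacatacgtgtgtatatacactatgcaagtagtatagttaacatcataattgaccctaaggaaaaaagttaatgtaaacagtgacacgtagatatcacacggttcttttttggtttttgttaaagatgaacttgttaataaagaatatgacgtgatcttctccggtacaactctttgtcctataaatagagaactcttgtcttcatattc
CKX4 (chr4:14565933-14566182, plus strand, fell with IAA in Wt): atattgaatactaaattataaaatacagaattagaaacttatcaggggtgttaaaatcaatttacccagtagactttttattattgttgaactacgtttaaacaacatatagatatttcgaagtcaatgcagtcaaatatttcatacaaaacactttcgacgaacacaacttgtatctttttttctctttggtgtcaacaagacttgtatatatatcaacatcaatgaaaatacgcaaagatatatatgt
IPT5 (chr5:6363714-6363963, minus strand, holds the element, not past the threshold): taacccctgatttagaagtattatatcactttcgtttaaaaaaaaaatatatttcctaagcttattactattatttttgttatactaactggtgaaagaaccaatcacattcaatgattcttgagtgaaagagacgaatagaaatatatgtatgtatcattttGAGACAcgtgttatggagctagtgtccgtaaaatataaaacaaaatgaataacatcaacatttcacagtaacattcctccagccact

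TGTCTC on either strand lay in 3 of the 10 upstream windows, 227 bases before the start in CKX5, 73 in CKX7 and 87 in IPT5. In windows of the same length, 10.9% of 27443 protein-coding genes held it. The related element TGTCGG was in 0 of the 10 windows and in 4.16% of all windows. AGATT, the core bound by type-B response regulators of the cytokinin pathway, was in 6 of the 10 windows and in 63.7% of all. CKX1, CKX3, CKX4 and CKX6, which had the largest changes with IAA, held neither TGTCTC nor TGTCGG in these windows. A match is a description of the letters, and longer windows were not searched.

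CKX7 and CKX6 were the main sources of CKX transcript in IAA-treated seedlings, while CKX7 alone dominated in mock-treated ones. The order of these 2 was not the same in all genotypes with IAA, as CKX6 was at 6.43 ± 1.14 and CKX7 at 5.86 ± 0.38 CPM per kb in *aff1-3*. Per kb of exon, CKX7 stood at 10.6 ± 1.29 CPM per kb in Wt with mock (mean ± SD, n = 3), followed by CKX6 at 1.77 ± 0.28 and CKX5 at 1.36 ± 0.25. Exon lengths come from RefSeq TAIR10.1, whereas the study counted reads on an Ensembl annotation of TAIR10. They may hold bases that were not counted, so levels per kb, here and below, are approximate. The next levels, 0.83 ± 0.20 for CKX1 and 0.77 ± 0.21 for CKX3, did not differ beyond their spread. CKX4 was at 0.46 ± 0.08. After IAA in Wt the order was CKX7 at 9.53 ± 1.83 CPM per kb, CKX6 at 6.98 ± 0.48, CKX1 at 3.43 ± 0.50, CKX3 at 2.78 ± 0.47, CKX5 at 2.45 ± 0.17 and CKX4 at 0.05 ± 0.01. The intervals of CKX1 and CKX3, and those of CKX3 and CKX5, overlapped. Of the 3 IPT members, IPT3 led in Wt with mock at 8.83 ± 0.79 CPM per kb, ahead of IPT5 at 4.97 ± 0.46 and IPT7 at 3.59 ± 0.52. Outside the set, IPT9 stood higher, at 10.0 ± 0.33 CPM per kb, and IPT2 was at 4.25 ± 0.50. With IAA the 3 IPT genes lay close together, at 5.26, 5.45 and 5.32 CPM per kb.

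**Figure D1:**
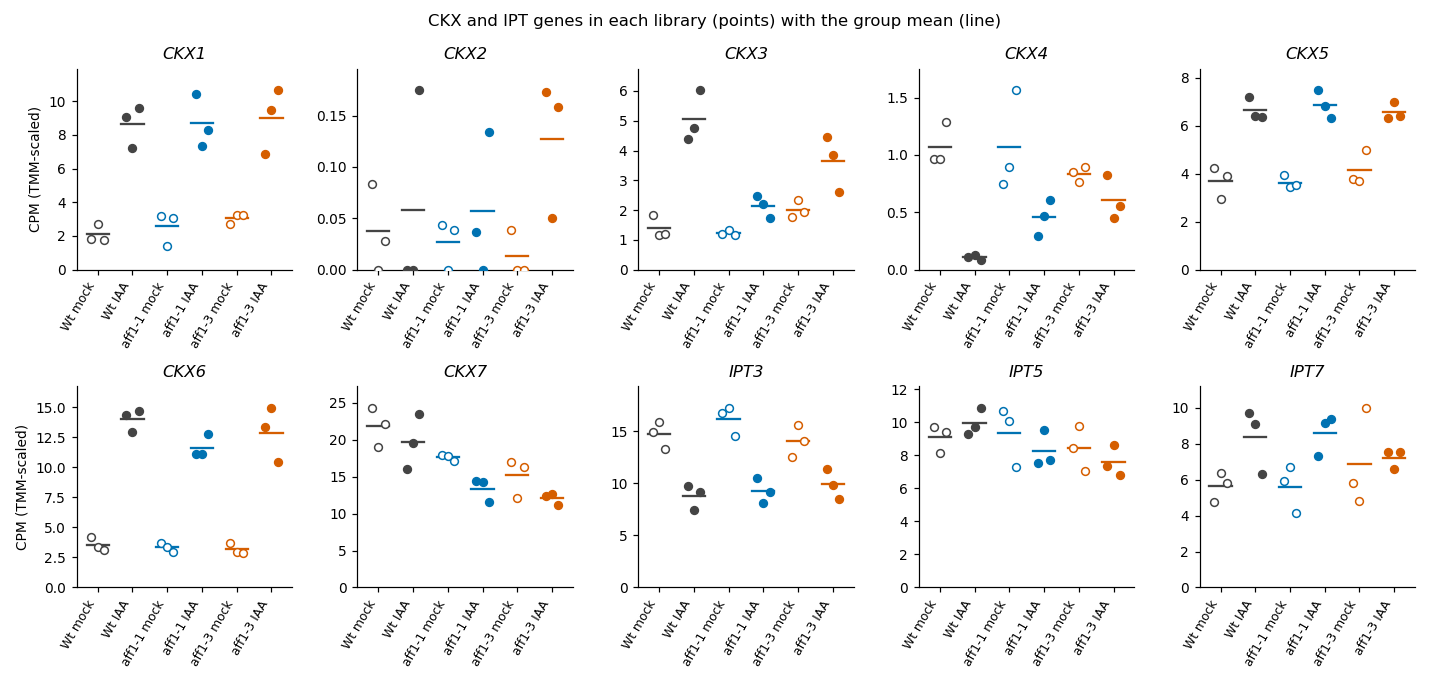
Levels of the 10 genes, in CPM scaled by TMM (vertical axes from 0, each with its own range), in the 18 libraries. Open points are mock and filled points IAA libraries, and lines are means of 3. CKX1, CKX3, CKX5 and CKX6 lay higher with IAA than with mock in each genotype without overlap. The share of all genes without overlap was not computed. CKX4 in Wt with IAA lay at 0.09 to 0.13 CPM.

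CKX2, whose product is secreted and which is best known from reproductive shoot meristems, was at the limit of detection. It had 0 to 4 counts in every library, with group sums of 1 to 7 counts. CKX2 did not pass the filter (more than 1 CPM, before TMM scaling, in at least 2 libraries of a group) and was not tested. At this depth neither its presence nor a response could be shown, with 3 counts over a group corresponding to 0.04 to 0.05 CPM.

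In Wt, IAA raised 4 CKX genes and lowered CKX4, and among the IPT genes lowered IPT3. Of the 9 members tested, 6 were past the threshold (adjusted p below 0.01, edgeR's quasi-likelihood test, 6 group means), 4 higher and 2 lower, against a background of 9.66% of the 19383 genes tested (4.92% higher and 4.74% lower). The median log2 fold change of the 6 tested CKX genes was 1.35 and that of all genes 0.01. The set was chosen with earlier results of these data known. Counts set against the background, here and below, are therefore descriptions. CKX4 entered the test only through the mock-treated Wt libraries, in which it was highest, so its p-value is not independent of that selection.

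CKX6, reported to respond to auxin in young leaf primordia, had the smallest adjusted p of the set. In Wt it stood at 4.18, 3.40 and 3.10 CPM with mock and at 14.4, 12.9 and 14.7 CPM with IAA. The lowest IAA library lay far above the highest mock library (log2 fold change 1.98, SE 0.16, adjusted p = 4.00e-09). An antisense lncRNA, AT3G63445, covers 2234 bases of the CKX6 locus and was counted as its own gene at 1.65 ± 0.31 CPM with mock and 2.32 ± 0.31 CPM with IAA in Wt. The study's methods count only unambiguous reads, and the strand setting of the counting is not given in the sources used here. How reads in bases shared by overlapping genes were assigned, or whether they were left out, is therefore not known. The CKX6 level per kb is divided by its full exon length of 2007 bases, so it carries this limit. CKX1 is overlapped by the antisense models AT2G41505 and AT2G41515, which are not rows of the table, and CKX5 by 665 bases of AT1G75440 on the other strand, which stood at 10.2 ± 0.67 CPM with mock and 9.74 ± 0.96 CPM with IAA in Wt. CKX5 is also overlapped by the lncRNAs AT1G09553, on the same strand over 243 bases, and AT1G09557, on the other strand over 217 bases, neither of which is a row of the table. CKX3, CKX4, CKX7 and the 3 IPT genes have no overlapping gene in TAIR10.1.

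CKX1, whose overexpression is known to enlarge the root system, was at 1.80, 2.69 and 1.79 CPM with mock and at 9.09, 7.20 and 9.61 CPM with IAA in Wt. This 4.15-fold rise was the largest of the set (log2 fold change 2.05, SE 0.24, adjusted p = 1.67e-06). CKX3, which together with CKX5 is known to limit meristem size in the inflorescence, rose from 1.84, 1.18 and 1.20 CPM to 4.38, 4.77 and 6.03 CPM (log2 fold change 1.86, SE 0.24, adjusted p = 4.93e-06). CKX5 rose less, from 4.26, 2.94 and 3.91 CPM to 7.22, 6.41 and 6.38 CPM (log2 fold change 0.84, SE 0.16, adjusted p = 0.00067). Mock and IAA libraries did not overlap for any of these genes, and no left-out library or other method ended their calls. Here and below, overlap only describes the libraries of the members, since its share over all genes was not computed.

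CKX4 moved in the opposite direction to the other CKX genes that changed in Wt. It had 23, 23 and 46 counts with mock and 2, 4 and 2 counts with IAA, or 0.96, 0.97 and 1.28 CPM against 0.11, 0.13 and 0.09 CPM. The summed counts, 92 and 8, differed 9.92-fold after scaling (95% interval 4.83 to 23.7, exact binomial, which covers counting error only). The fitted log2 fold change was -3.23 (SE 0.46, adjusted p = 2.09e-05), and it was -3.31, -3.30 and -3.07 when the filter was dropped together with each mock library in turn (adjusted p up to 0.00019), an alternative chosen after the counts had been seen. CKX4 is itself known to be induced by cytokinin. CKX7, the cytosolic form, was at 24.3, 19.0 and 22.1 CPM with mock and 16.0, 19.5 and 23.5 CPM with IAA in Wt. These libraries overlapped (log2 fold change -0.14, SE 0.14, adjusted p = 0.56).

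IPT3, a plastid enzyme of the phloem known for its induction by nitrate, fell in Wt. Its level was 14.9, 15.9 and 13.3 CPM with mock and 9.72, 7.46 and 9.13 CPM with IAA, with no overlap (log2 fold change -0.75, SE 0.14, adjusted p = 0.00037). IPT5, known from lateral root primordia and the root cap, was at 9.74, 8.14 and 9.40 CPM with mock and 9.32, 9.70 and 10.9 CPM with IAA (log2 fold change 0.13, SE 0.16, adjusted p = 0.64). IPT7, whose enzyme is mitochondrial, was at 4.76, 6.38 and 5.80 CPM with mock and 9.72, 9.07 and 6.29 CPM with IAA. The IPT7 libraries overlapped in a single pair of values, and the difference did not pass the threshold (log2 fold change 0.56, SE 0.23, adjusted p = 0.11). In bulk seedlings, fewer cells that express a gene and less RNA per cell cannot be told apart. The root markers COBL9 and NRT2.1 also fell with IAA in Wt (log2 fold changes -0.93 and -0.52), while the other 3 of the 5 root markers and all 3 shoot markers were not past the threshold. Whether a change in tissue shares contributed to the CKX and IPT values was not tested.

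Both mutants kept a response of CKX1 and CKX6 to IAA. In *aff1-1*, 4 members were past the threshold (CKX1, CKX5 and CKX6 higher, IPT3 lower), against a background of 4.87% of genes (3.16% higher and 1.71% lower). In *aff1-3*, 2 members were past it (CKX1 and CKX6, both higher), against 4.95% (2.98% higher and 1.97% lower). CKX1 stood at 3.19, 1.41 and 3.09 CPM with mock and 10.4, 7.37 and 8.30 CPM with IAA in *aff1-1*, and at 2.71, 3.22 and 3.24 CPM with mock and 6.88, 9.47 and 10.7 CPM with IAA in *aff1-3*. With IAA these levels reached the range of Wt (log2 fold changes 1.72, SE 0.24, and 1.55, SE 0.24, against 2.05 in Wt). CKX6 rose from 3.67, 3.39 and 2.98 CPM to 11.1, 11.1 and 12.8 CPM in *aff1-1*. In *aff1-3* it rose from 3.68, 2.95 and 2.90 CPM to 13.3, 15.0 and 10.4 CPM. Their log2 fold changes, 1.81 (SE 0.16) and 2.03 (SE 0.16), lay on either side of the 1.98 of Wt.

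CKX5 rose in *aff1-1* from 3.94, 3.45 and 3.51 CPM to 7.49, 6.85 and 6.33 CPM (log2 fold change 0.92, SE 0.16, adjusted p = 0.00059). In *aff1-3* the CKX5 levels, 3.79, 3.71 and 4.99 CPM with mock and 6.32, 6.98 and 6.40 CPM with IAA, did not overlap either, but the difference missed the threshold (log2 fold change 0.65, SE 0.16, adjusted p = 0.013) and passed it without the highest mock library, replicate 3 (adjusted p = 0.0059), and by DESeq2 (adjusted p = 0.0041). IPT3 fell in *aff1-1* from 16.8, 17.3 and 14.6 CPM to 10.5, 8.16 and 9.14 CPM (log2 fold change -0.80, SE 0.14, adjusted p = 0.00035). In *aff1-3*, IPT3 was at 12.5, 15.6 and 14.1 CPM with mock and 11.3, 9.87 and 8.53 CPM with IAA. These libraries did not overlap, and the difference was not past the threshold (log2 fold change -0.49, SE 0.14, adjusted p = 0.028). CKX7, IPT5 and IPT7 were not past it in either mutant. Their log2 fold changes were -0.40, -0.18 and 0.64 in *aff1-1* (SE 0.14, 0.16 and 0.23). In *aff1-3* they were -0.32, -0.14 and 0.06 (SE 0.15, 0.16 and 0.23). At an unadjusted p below 0.05 (edgeR) there were 8 members in *aff1-1*, 6 in *aff1-3* and 7 in Wt. Of all 19383 genes, 3577, 3882 and 5397 met this rule, in that order.

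**Figure D2:**
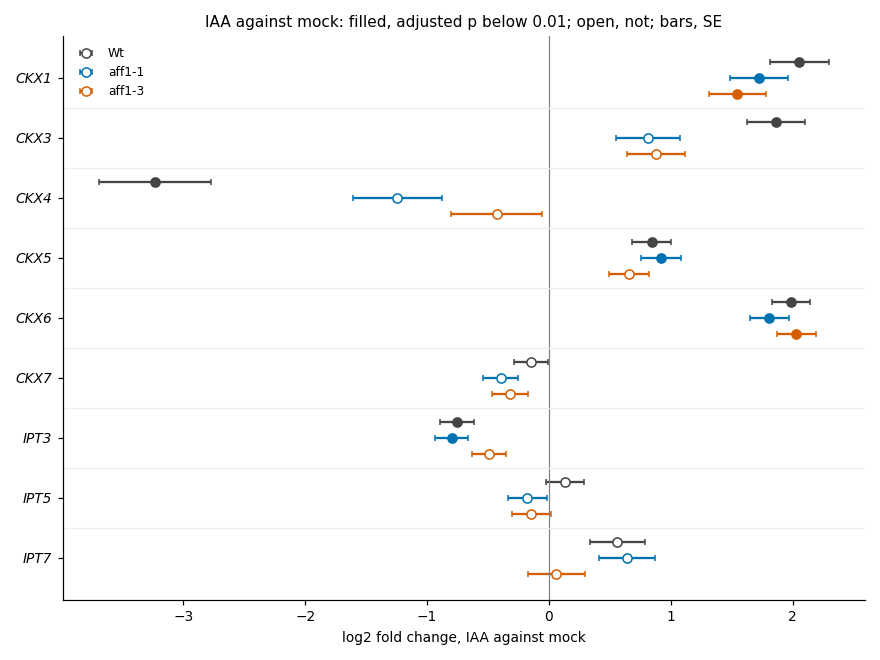
Log2 fold change of IAA against mock (horizontal axis, bars are SE) for the 9 tested genes in Wt, *aff1-1* and *aff1-3*, 3 libraries per group. Filled points have an adjusted p below 0.01, and the 3 genotypes lie close together for CKX1, CKX5 and CKX6 and apart for CKX3 (1.86, 0.81 and 0.88) and CKX4 (-3.23, -1.24 and -0.43).

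CKX3 and CKX4 were past the threshold with IAA in Wt and in neither mutant. CKX3 stood at 1.18, 1.34 and 1.14 CPM with mock and at 2.49, 2.20 and 1.74 CPM with IAA in *aff1-1* (log2 fold change 0.81, SE 0.26, adjusted p = 0.064). In *aff1-3* it stood at 1.78, 2.33 and 1.94 CPM with mock and 4.46, 3.84 and 2.61 CPM with IAA (log2 fold change 0.88, SE 0.24, adjusted p = 0.022). Neither difference was past the threshold although the libraries did not overlap, and in *aff1-3* it passed without IAA replicate 3 (adjusted p = 0.0084) and by DESeq2 (adjusted p = 0.0091). CKX4 in *aff1-1* had 17, 14 and 41 counts with mock and 8, 9 and 18 counts with IAA (log2 fold change -1.24, SE 0.36, adjusted p = 0.037). In *aff1-3* it had 22, 17 and 24 counts with mock and 19, 9 and 7 counts with IAA, which overlapped (log2 fold change -0.43, SE 0.37, adjusted p = 0.58). The ratio of summed counts was 2.43 in *aff1-1* (95% interval 1.60 to 3.75) and 1.34 in *aff1-3* (95% interval 0.87 to 2.09), against 9.92 in Wt.

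The difference of the IAA responses between genotypes was tested directly as an interaction. For both mutants 0 of the 9 tested members were past the threshold, against a background of 0.0722% of genes in *aff1-1* and 0.0877% in *aff1-3*. At an unadjusted p below 0.05 there were 2 members in each (CKX3 and CKX4), and limma and DESeq2 called 0 in either. CKX4 came nearest, with an interaction of 2.80 on the log2 scale in *aff1-3* (SE 0.62, adjusted p = 0.043, and 0.026 by DESeq2 and 0.048 by limma) and of 1.99 in *aff1-1* (SE 0.62, adjusted p = 0.21). It entered the test only through the mock-treated Wt libraries, which are part of both interactions. These p-values are thus not independent of that selection, and Wt with IAA held 8 CKX4 counts in all. For CKX3 the interactions were -1.05 in *aff1-1* (SE 0.36, adjusted p = 0.25) and -0.98 in *aff1-3* (SE 0.34, adjusted p = 0.25). A weaker response of CKX3 or CKX4 in the mutants was therefore not established at the threshold. The interactions of CKX1, CKX5, CKX6, CKX7 and the IPT genes were between -0.51 and 0.26, each with an adjusted p of at least 0.598. Both interactions use the same Wt libraries.

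With mock, 0 of the 9 tested members differed from Wt in either mutant, against backgrounds of 4.58% of genes in *aff1-1* and 6.78% in *aff1-3*. At an unadjusted p below 0.05 there were 1 (CKX7) and 3 (CKX1, CKX3 and CKX7), and limma called 0 in either mutant. CKX7 came nearest, at 17.0, 12.1 and 16.3 CPM in *aff1-3* against 24.3, 19.0 and 22.1 CPM in Wt. These libraries did not overlap (log2 fold change -0.52, SE 0.14, adjusted p = 0.017), and DESeq2 placed the difference past the threshold (adjusted p = 0.0052). In *aff1-1*, CKX7 was at 17.9, 17.8 and 17.1 CPM (log2 fold change -0.31, SE 0.14, adjusted p = 0.19). The 3 IPT genes had log2 fold changes between -0.11 and 0.29 in the mutants with mock, with SE of 0.13 to 0.24.

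With IAA, CKX3 was lower in *aff1-1*, and CKX4 was higher and CKX7 lower in *aff1-3*. That is 1 member in *aff1-1*, against a background of 6.17% of genes (4.46% higher and 1.71% lower), and 2 in *aff1-3*, against 4.72% (3.39% higher and 1.33% lower). CKX3 was at 2.49, 2.20 and 1.74 CPM in *aff1-1* and at 4.38, 4.77 and 6.03 CPM in Wt, without overlap (log2 fold change -1.25, SE 0.23, adjusted p = 0.00094). The call was lost narrowly without replicate 3 of Wt (adjusted p = 0.0107) or replicate 3 of *aff1-1* (adjusted p = 0.0107). In *aff1-3* the CKX3 level, 4.46, 3.84 and 2.61 CPM, overlapped with Wt (log2 fold change -0.45, SE 0.22, adjusted p = 0.25), and the alleles did not differ past the threshold (log2 fold change 0.79 for *aff1-3* against *aff1-1*, SE 0.24, adjusted p = 0.17).

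CKX4 with IAA was at 0.82, 0.45 and 0.55 CPM in *aff1-3* and at 0.29, 0.47 and 0.60 CPM in *aff1-1*, all above the 0.09 to 0.13 CPM of Wt. The difference was past the threshold in *aff1-3* (log2 fold change 2.43, SE 0.52, adjusted p = 0.0039) and not in *aff1-1* (log2 fold change 2.00, SE 0.52, adjusted p = 0.014). It rests on 8 counts in all in Wt and 35 in each mutant, and the call in *aff1-3* was lost without any of the Wt libraries (adjusted p = 0.014, 0.018 and 0.024 without replicates 1, 2 and 3) or replicate 1 of *aff1-3* (adjusted p = 0.037). No IAA library exceeded 1 CPM. CKX4 entered the test only through mock-treated Wt libraries, which are not part of this comparison. With only the groups compared, CKX4 was not tested.

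CKX7 with IAA was at 12.3, 12.7 and 11.2 CPM in *aff1-3* and at 14.4, 14.3 and 11.5 CPM in *aff1-1*, against 16.0, 19.5 and 23.5 CPM in Wt. Neither mutant overlapped with Wt. The log2 fold change was -0.70 in *aff1-3* (SE 0.15, adjusted p = 0.0033) and -0.56 in *aff1-1* (SE 0.14, adjusted p = 0.012). The call in *aff1-3* was lost without Wt replicate 2 (adjusted p = 0.013), Wt replicate 3 (0.035) or *aff1-3* replicates 1, 2 or 3 (0.013, 0.0104 and 0.020), while that in *aff1-1* was gained by DESeq2 (adjusted p = 0.0027) and limma (adjusted p = 0.00084). Summed root markers with IAA were at 2916 to 3255 CPM in Wt, 2686 to 2871 CPM in *aff1-1* and 2262 to 2456 CPM in *aff1-3*, again mostly PYK10. Of the 5 root markers, 0 were lower past the threshold in either mutant with IAA and 1, NRT2.1, was higher in *aff1-1* (log2 fold change 0.44), with medians of -0.17 and -0.01. Their part in the CKX7 difference was not tested. IPT3 was at similar levels in the IAA-treated genotypes (log2 fold changes 0.09 and 0.20 against Wt, SE 0.14 each). Between the alleles, 0 members differed with mock and 0 with IAA, against backgrounds of 0.139% and 0.181% of genes, and CKX3 alone had an unadjusted p below 0.05 (1 member in each treatment, with 0 called by limma or DESeq2).

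**Figure D3:**
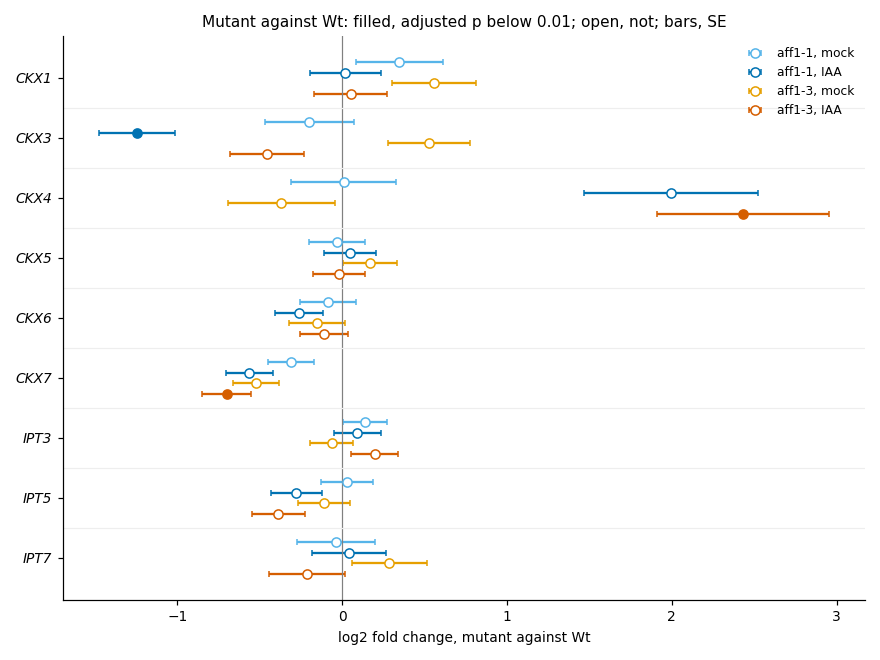
Log2 fold change of each mutant against Wt with mock and with IAA (horizontal axis, bars are SE) for the 9 tested genes, 3 libraries per group. Filled points have an adjusted p below 0.01, and these are CKX3 in *aff1-1* with IAA (-1.25) and CKX4 (2.43) and CKX7 (-0.70) in *aff1-3* with IAA.

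Summed over the 7 genes and divided by exon length, CKX transcript was at 15.8 ± 1.76 CPM per kb in Wt with mock and 25.3 ± 2.68 with IAA (n = 3). The sum was 13.7 ± 0.50 and 19.7 ± 1.07 CPM per kb in *aff1-1* and 13.1 ± 1.34 and 20.6 ± 1.64 in *aff1-3*. In each genotype the lowest IAA library lay above the highest mock library. CKX1, CKX3, CKX5 and CKX6 together gave 30.0% ± 2.06 of it in Wt with mock and 62.1% ± 4.27 with IAA. The share of CKX7 was 66.9% ± 1.67 and 37.6% ± 4.17. The 3 IPT genes summed to 17.4 ± 0.62 CPM per kb with mock and 16.0 ± 0.94 with IAA in Wt, which overlapped. This IPT sum leaves out the other IPT genes, among them IPT9 at 10.0 ± 0.33 CPM per kb in Wt with mock. The ratio of the CKX sum to the IPT sum was 0.91 ± 0.12 in Wt with mock and 1.58 ± 0.23 with IAA. It was 0.76 ± 0.12 and 1.27 ± 0.10 in *aff1-1*, and 0.76 ± 0.11 and 1.40 ± 0.09 in *aff1-3*. These sums describe transcripts, not enzyme activity.

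**Figure D4:**
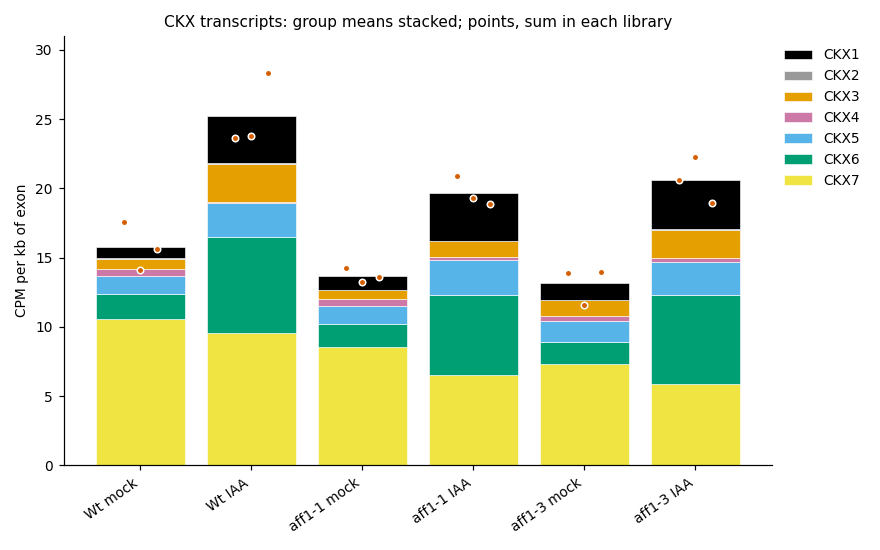
CKX transcript per kb of exon (vertical axis, CPM per kb from 0) stacked by gene as means of 3 libraries in the 6 groups, with points for the sum in each library. The CKX7 block is the tallest in every mock group, and the sum is higher with IAA (25.3 against 15.8 CPM per kb in Wt).

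Other steps of the pathway changed in Wt as well, where 4.92% of all genes were called higher and 4.74% lower with IAA. Among the other IPT genes, 0 of the 3 tested (of 6) were past the threshold, with a median log2 fold change of 0.01. CYP735A2, which hydroxylates the side chain to make trans-zeatin types, fell (log2 fold change -4.39, SE 0.46, adjusted p = 3.13e-07), and it was the called gene of the 2 CYP735A genes. Of the LOG genes, which release active bases from nucleotides, 3 of 6 tested rose and 0 fell: LOG3 (1.82), LOG4 (1.43) and LOG5 (1.00). Of the 4 glucosyltransferases, UGT76C2, which makes N-glucosides, fell (-0.67). Of the 3 transporters, ABCG14, which exports cytokinins for root-to-shoot transport, fell (-1.64). None of the 3 receptors (AHK2, AHK3 and AHK4) and 0 of the 6 tested type-B response regulators were past the threshold. AHP1, a phosphotransfer protein, fell (-0.53), alone among the 5 AHP genes tested. All 8 tested type-A response regulators, early cytokinin-induced genes, fell, with a median of -1.22 and most for ARR6 (-2.34), ARR3 (-1.71) and ARR7 (-1.44). Among the 6 cytokinin response factors, CRF3 (2.12) and CRF2 (0.94) rose and CRF6 (-0.66) fell.

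**Figure D5:**
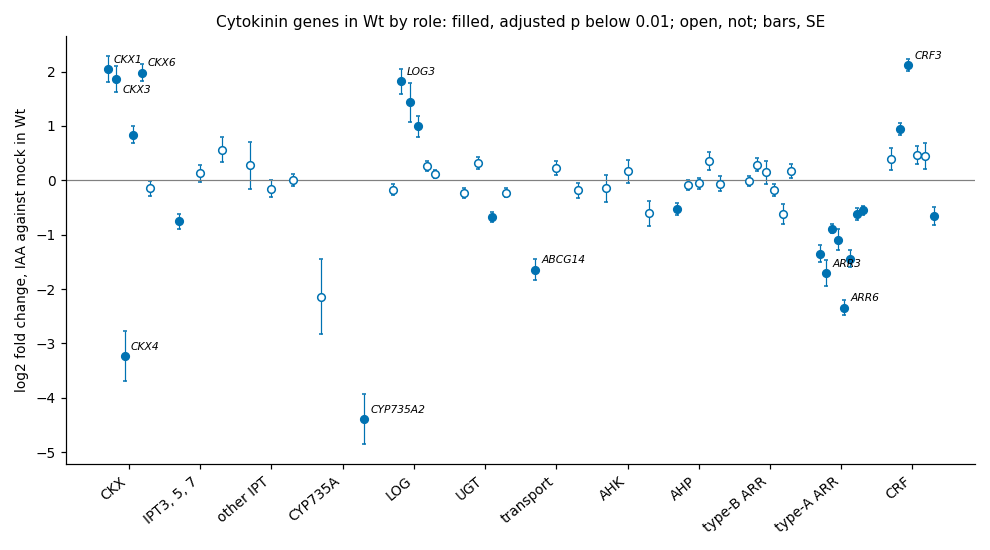
Log2 fold change of IAA against mock in Wt (vertical axis, bars are SE) for the tested genes of 12 groups of cytokinin genes, with 3 libraries per treatment. Filled points have an adjusted p below 0.01, and CKX4 (-3.23) and CYP735A2 (-4.39) are the lowest of the points.

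In the mutants, CYP735A2 also fell with IAA (-2.67 in *aff1-1* and -2.64 in *aff1-3*), LOG3 rose (1.19 and 1.36) and ABCG14 fell (-1.26 and -0.99). Of the type-A response regulators, 6 of 8 fell in each mutant, with medians of -0.67 and -0.79, where 1.71% and 1.97% of all genes were called lower. Beyond the CKX differences above, differences from Wt were found in other steps. The nucleoside transporter gene ENT3 was higher in *aff1-1* and *aff1-3* with mock (1.18 and 1.57) and with IAA (1.21 and 1.60). UGT85A1, which can glucosylate zeatin, was higher in the same comparisons (0.65 and 0.73 with mock, 1.00 and 0.88 with IAA), as was LOG7 (0.46 and 0.63, 0.44 and 0.44). UGT76C2 was higher in both mutants with IAA (0.53 and 0.66). With mock, 2 of the 8 tested type-A response regulators were lower in *aff1-1* and 4 of 8 in *aff1-3* (medians -0.30 and -0.37). Of all genes, 4.58% and 6.78% were called in either direction, and the share called lower was not computed. Among the lower regulators were ARR6 in both mutants (-0.87 and -1.09) and ARR5 in *aff1-3* (-0.84). AHP5 (0.61) and ARR16 (0.69) were higher in *aff1-1* with IAA, and CRF2 was lower in *aff1-1* and *aff1-3* with IAA (-0.42 and -0.46).

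The genes whose course over the 18 libraries was closest to CKX4, by the mean absolute difference of log2 CPM after centring each gene on its own mean, were GSTF11 (AT3G03190, 0.30), GLYI4 (AT1G15380, 0.30) and LBD25 (AT3G27650, 0.33). The median over all genes was 0.76. These genes had far more counts, with LBD25 at 12.5 CPM in Wt with mock and 1.49 CPM with IAA. For IPT3 the closest were PME3 (AT3G14310, 0.10), PYL6 (AT2G40330, 0.13) and AGP25 (AT5G18690, 0.13), against a median of 0.37. PME3 stood at 180.2 CPM in Wt with mock and 111.2 CPM with IAA. The likeness was computed over the libraries that define the response, and it is a description.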

How the data were processed

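RNA-seq counts of 18 seedling libraries were used. The authors deposited counts per gene, without normalization, made with STAR and featureCounts on TAIR10, per the labels and the study's methods; whether counting used strand is not given in the sources used here. Depth was 12610301 to 36102396 counts per library. The 4 nuclear rRNA rows were left out. Genes were kept if 2 or more libraries of any group exceeded 1 CPM before TMM scaling. This left 19383 for edgeR 4.0.16 (R 4.3.3; quasi-likelihood test, TMM, 6 group means, Benjamini-Hochberg adjusted p below 0.01). Alternatives were limma 3.58.1 with sample weights, DESeq2 1.42.0, no filter, only the groups compared, other thresholds, a replicate block and each library left out. RefSeq TAIR10.1 gave positions, exon lengths and upstream sequence, and 99.0% of table genes matched it. The members, the pathway lists and the marker lists were chosen with earlier results of these data known. Named genes are the 10 members, AFF1, up to 3 called genes per list for IAA in Wt and up to 2 for mutants, and the 3 genes most like CKX4 and IPT3.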

Additional observations from a re-analysis of the deposited data

How the results depend on the processing

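No member changed direction past the threshold under any alternative. Of 15 called differences of single members, refitted 207 times in all, 196 refits kept the call and 11, all without one library and all in the mutants against Wt with IAA, lost it. For IAA in Wt, members past the threshold numbered 4 in place of 6 with an added log2 fold change of at least 1.5, and 5 without mock replicate 1 or 3, where CKX4 no longer passed the filter. For IAA in *aff1-1* they numbered 2 with the fold minimum and 5 at an adjusted p below 0.05, in place of 4. For IAA in *aff1-3* they numbered 4 by DESeq2 and 5 at an adjusted p below 0.05, in place of 2. For *aff1-3* against Wt with mock DESeq2 and the looser threshold each gave 1 in place of 0. For *aff1-1* against Wt with IAA there were 3 by limma, 2 by DESeq2, 2 without the filter, 2 with only the groups compared, 3 at the looser threshold and 0 with the fold minimum, in place of 1, and 0 to 2 with libraries left out. For *aff1-3* against Wt with IAA there was 1 with only the groups compared, where CKX4 no longer passed the filter. There was 1 with the fold minimum, in place of 2, and 0 to 1 with libraries left out. The looser threshold gave 1 interaction in *aff1-3*, that of CKX4, in place of 0. The causes of these shifts were not tested, apart from the thresholds themselves, the smaller number of libraries and the filter where it is named for CKX4.

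The count over all genes moved more. For IAA in Wt it was 1873, with 399 to 3072 over the alternatives. It was 944 (214 to 1452) in *aff1-1* and 959 (210 to 1629) in *aff1-3*. With mock it was 887 (79 to 1879) for *aff1-1* and 1314 (146 to 2493) for *aff1-3* against Wt, and with IAA 1196 (88 to 2948) and 915 (117 to 1752). Between alleles it was 27 (7 to 61) with mock and 35 (13 to 107) with IAA, and for the interactions 14 (2 to 94) and 17 (8 to 117).

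Same-numbered replicates were not treated as pairs: correlations of their deviations were -0.08 to 0.26, with 5 of 27 over 0.1, and 0 comparisons had every pair over 0.1. In 2 comparisons (IAA in *aff1-1*, and *aff1-1* against Wt with mock) each sample of a group correlated best with its own number, a hint from the data and not from the design. With the replicate number as a block, members past the threshold were again 6, 4 and 2 for IAA in Wt, *aff1-1* and *aff1-3*, and 1 and 2 for the mutants against Wt with IAA, and 0 member calls changed. CKX2 and CKX4 are limited by depth, at 0 to 4 and 2 to 46 counts per library.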
